A study of Mus musculus with 30 samples.

Results

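RNA levels of 10 heat shock and chaperone genes were followed in multipotent progenitor cells sorted from mouse bone marrow. The genes were Hspa1a, Hspa1b, Hspa5, Hspa8, Hsp90aa1, Hsp90ab1, Hspd1, Hspe1, Hsph1 and Dnajb1, chosen by their symbols out of 24421 genes listed in each of 5 deposited tables, and all 10 were found in all 5. The series asks what the transcription factor Bcl11a does in these progenitors as mice age. Each table compares cells called T1 with cells called T2 in 3 replicate libraries of each, 30 libraries in all. The tables are KOiMOS MPP3 of 3 months, WTiMOS MPP3 of 3 months, WTiMOS MPP3 of 24 months, WTiMOS MPP4 of 3 months and WTiMOS MPP4 of 24 months. MPP3 are multipotent progenitors biased to myeloid output, and MPP4 are lymphoid-primed progenitors. The labels give the genotype as KOiMOS or WTiMOS with T1 or T2 and do not say which alleles, strain or recombinase the names stand for, which of T1 and T2 carries a change, or whether replicates came from separate mice. The p-values below therefore rest on differences among libraries that could be technical repeats. KOiMOS MPP3 of 24 months, which the design text also mentions, were not analysed here. Levels are TPM, the share of a library's transcripts that a gene holds after scaling by its length, and the read depth behind them is unknown.

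Chaperones bind unfolded or partly folded proteins, keep them from clumping and help them fold. In the cytosol Hsp70 proteins bind and release clients in a cycle driven by J-domain cochaperones such as Dnajb1 and by exchange factors such as Hsph1, and pass some clients to Hsp90. Hspa8 and Hsp90ab1 are the forms made in most cells at all times, while Hspa1a, Hspa1b and Hsp90aa1 are the forms that the heat shock factor Hsf1 raises under stress. Hspa5 (BiP) is the Hsp70 of the endoplasmic reticulum and a target of the unfolded protein response. Hspd1 (Hsp60) and Hspe1 (Hsp10) are the barrel and the lid of the mitochondrial chaperonin and are transcribed in opposite directions from a shared region. Blood stem cells are known for low rates of protein synthesis and for a close dependence on protein quality control.

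Promoter windows of RefSeq's GRCm38.p6 table, which run from 250 bases before to 50 bases after each start site, were matched for 7 of the 10 genes (Hspa1a, Hspa1b, Hspa5, Hspd1, Hspe1, Hsph1 and Dnajb1). The first pair of sequences is shown because Hspd1 and Hspe1 share one region, read on opposite strands, and yet differed in direction in some of the tables. Both lines give the same 30 bases (chr1:55088053-55088082), for Hspe1 on the plus strand and for Hspd1 on the minus strand, with the heat shock element letters in capitals.
Hspe1: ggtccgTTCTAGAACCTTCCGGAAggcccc
Hspd1: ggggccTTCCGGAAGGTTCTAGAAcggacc
GENCODE vM21 places the 18 bases in capitals within an annotated exon of Hspd1. The heat shock element, which Hsf1 is known to bind, was searched as GAANNTTCNNGAA and its reverse complement TTCNNGAANNTTC, and the stretch holds 2 overlapping matches. At least 1 match occurs in 198 of 32851 promoter windows (0.603%) and in 3 of the 7 genes. The third of these is Hsph1, with TTCTGGAAAGTTC on the minus strand at chr5:149636288-149636300, in an annotated exon of that gene.

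The 30 bases of Hspa5 (chr2:34772020-34772049, plus strand) are shown because they hold, in capitals, the endoplasmic reticulum stress element, searched as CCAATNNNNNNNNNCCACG and its reverse complement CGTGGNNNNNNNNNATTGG.
Hspa5: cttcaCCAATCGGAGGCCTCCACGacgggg
The element occurs in 39 of the 32851 windows (0.119%) and in 1 of the 7 genes, and it lies within the exon of an annotated Hspa5 transcript. The pair Hspa1a and Hspa1b is shown because the copies are so alike that reads can be hard to assign. Both lines give the 250 bases before the start on the minus strand, at chr17:34972157-34972406 and chr17:34959239-34959488, with the 3 bases that differ in capitals.
Hspa1a: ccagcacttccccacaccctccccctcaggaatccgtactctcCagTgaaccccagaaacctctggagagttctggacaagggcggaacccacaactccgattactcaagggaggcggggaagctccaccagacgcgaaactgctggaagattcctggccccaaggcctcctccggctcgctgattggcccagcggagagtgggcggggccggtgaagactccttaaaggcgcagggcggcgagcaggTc
Hspa1b: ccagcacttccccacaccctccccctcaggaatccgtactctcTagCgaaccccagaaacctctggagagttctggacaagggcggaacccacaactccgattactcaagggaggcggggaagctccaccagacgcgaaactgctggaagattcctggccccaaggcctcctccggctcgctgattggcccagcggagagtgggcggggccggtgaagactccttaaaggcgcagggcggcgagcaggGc
Their transcripts matched at 2515 of 2796 aligned bases (89.9%). No label or header says how reads that fit both copies were assigned, so the split between Hspa1a and Hspa1b is uncertain. A match of letters describes the window and is not evidence of binding, and a window without one says only that these letters are not in it.

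Some facts of the whole series touch every result. Bcl11a, the gene the series is about, was at 64.3 to 73.2 TPM in the KOiMOS MPP3 libraries, with overlapping T1 and T2, and lower in T1 than in T2 in the 4 WTiMOS tables (means of 11.2 to 45.2 TPM in T1 and 39.1 to 78.5 TPM in T2). The labels do not say which cells or exons carry a change, so these values check no label. Progenitor genes were present, with Cd34 at mean levels of 99.2 to 1383 TPM over the 10 groups. Mpo, a myeloid granule enzyme, was at 194.7 to 5125 TPM in MPP3 and 33.3 to 112 TPM in MPP4, and Dntt, an early lymphoid enzyme, was at 11.3 to 172 TPM in MPP3 and 393 to 974 TPM in MPP4. Flt3, also taken as a marker of MPP4 over MPP3, overlapped, at means of 19.9 to 146.4 TPM in MPP3 and 112.8 to 196.2 TPM in MPP4. In T2 of WTiMOS of 3 months it was higher in MPP3 (146.4 TPM) than in MPP4 (115.7 TPM). Summed RNA of 4 Y-linked genes was 0 in all T1 libraries of WTiMOS MPP3 of 24 months and WTiMOS MPP4 of 3 months, 0.061 to 0.184 TPM in T1 of WTiMOS MPP4 of 24 months and 53.97 to 169 TPM in T2 of these 3 tables. In KOiMOS MPP3 the sum was 109.9 to 114 TPM in T1 and 55.3 to 61.1 TPM in T2, and all 4 genes were called lower in T2. In WTiMOS MPP3 of 3 months it was 64.2 to 78.9 TPM in T1 and 33.8 to 58.5 TPM in T2, and 1 of the 4, Eif2s3y, was called lower. The cells compared thus differ in this RNA as well as in the name T1 or T2 in all 5 tables, and these cannot be told apart. In bulk RNA, fewer cells of a type and less RNA per cell cannot be told apart either.

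Hspa8 was the most abundant of the 10 genes in all 30 libraries, and Hspa1a or Hspa1b was the lowest in all 30. Hspa8 (chr9:40800984-40810087) ranged from 1175 to 5456 TPM, and Hsp90ab1 (chr17:45567775-45573271) from 426.6 to 3323 TPM. Hsp90aa1 (chr12:110690605-110702728) ranged from 358.9 to 1496 TPM, Hspe1 (chr1:55088132-55091307) from 144 to 1199 TPM and Hspa5 (chr2:34771970-34777547) from 200.1 to 1149 TPM. None of these 5 abundant chaperones was listed at 0 in any library.
Hspd1 (chr1:55077835-55088243) ranged from 75.3 to 781 TPM, Dnajb1 (chr8:83608193-83612653) from 41.4 to 272 TPM and Hsph1 (chr5:149614287-149636376) from 31.5 to 140.5 TPM. The stress-raised pair was low throughout, with Hspa1a (chr17:34969190-34972156) at 0 to 26.5 TPM and Hspa1b (chr17:34956436-34959238) at 0 to 9.47 TPM. Summed, the 10 genes held 3771 ± 206 TPM (SD, n = 3) in T2 of WTiMOS MPP4 of 3 months, the lowest group, and 11605 ± 364 TPM (SD, n = 3) in T2 of KOiMOS MPP3, the highest.

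**Figure D1:**
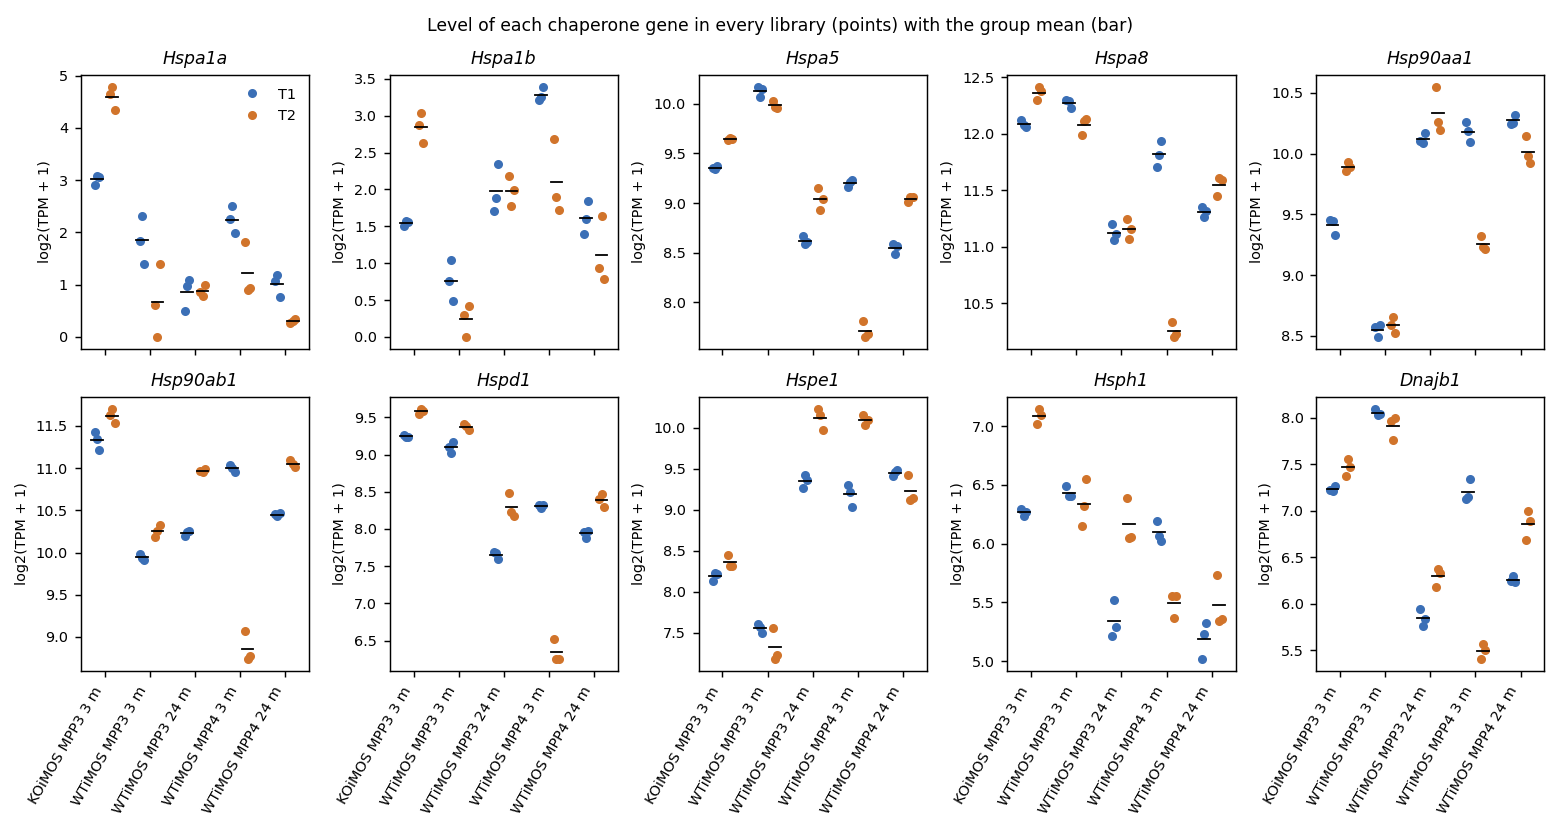
Level of each of the 10 genes as log2(TPM + 1) on the vertical axis in the 5 tables on the horizontal axis, with 1 point for each library (3 T1, 3 T2) and a bar at the mean of the 3 log2 values; the vertical axis differs between panels and does not start at 0. Hspa5, Hspa8, Hsp90ab1, Hspd1 and Dnajb1 were lowest in T2 of WTiMOS MPP4 of 3 months, where Hspe1 stood at a mean of 1092 TPM.

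In KOiMOS MPP3 of 3 months all 10 genes were higher in T2 than in T1 and all 10 passed the test. Over all genes tested 15.9% were called higher and 20.4% lower (limma on log2(TPM + 1), Benjamini-Hochberg adjusted p of at most 0.05). The median log2 change of the 10 was 0.31, against -0.04 for all genes. The largest changes were in the stress-raised Hsp70 pair. Hspa1a was at 6.53, 7.47 and 7.32 TPM in T1 and at 24.0, 26.5 and 19.3 TPM in T2. Hspa1b was at 1.83, 1.98 and 1.96 TPM in T1 and at 6.35, 7.20 and 5.21 TPM in T2. Every T2 library lay above every T1 library for both copies, as for all 10 genes here, and the share of all genes without overlap was not counted. The log2 changes of the pair were 1.57 (SE 0.11, adjusted p = 4.9e-07) and 1.30 (SE 0.13, adjusted p = 7.6e-06).
The exchange factor Hsph1 followed, at 77.4, 74.2 and 76.3 TPM in T1 and 128.7, 140.5 and 135.4 TPM in T2, a 1.76-fold rise (log2 0.82, SE 0.05, adjusted p = 1.1e-07). Hsp90aa1, the stress-raised Hsp90, rose by log2 0.48 (SE 0.04, adjusted p = 4.5e-06), from 680.3 ± 31.7 to 949.4 ± 26.0 TPM (SD, n = 3 each). The constant forms rose less. Hspa8 went from 4349 ± 107 to 5273 ± 212 TPM (log2 0.28) and Hsp90ab1 from 2573 ± 188 to 3149.9 ± 182 TPM (log2 0.29). Dnajb1 rose by log2 0.23, Hspa5 by 0.29, Hspd1 by 0.34 and Hspe1 by 0.17, and the call of Hspe1 was lost without T1 replicate 1 (adjusted p = 0.077) or without T2 replicate 1 (adjusted p = 0.072).
Rescaling each library by its median ratio to a common reference left all 10 higher, beside 20% of all genes called higher and 17.9% lower on that scale.

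Other chaperone genes of this table were read from 5 lists, beside the 15.9% of all genes called higher and 20.4% called lower; in all tables the genes named from a list are those of smallest p, which need not have the largest change. Of 13 tested heat shock factors and other inducible chaperones, 6 rose and 1 fell (median log2 0.22), among them Hspa2 (1.22), Dnaja1 (0.35) and Bag3 (0.59), an Hsp70 exchange factor. Of 16 cochaperones of Hsp70 and Hsp90, 9 rose and 1 fell (median 0.15). Stip1, which bridges Hsp70 and Hsp90, rose by 0.35 and Ahsa2, a relative of the Hsp90 activator Ahsa1, by 0.51, while Hspbp1, an Hsp70 exchange factor, fell by 0.44. Of 26 genes of the endoplasmic reticulum, 15 rose and 2 fell (median 0.21), among them Calr (0.31), Hsp90b1 (0.31) and Creld2 (0.41). Of 15 mitochondrial chaperones and proteases 3 rose and 0 fell (median 0.03), namely Phb2, Hscb and the protease Lonp1. Of 14 subunits of the chaperonin TRiC and of prefoldin 5 rose and 1 fell (median 0.11), with Cct7 at 0.26 and the prefoldin subunit Pfdn5 at -0.27.
Immediate early genes, which cell handling also raises, summed to 3715 to 3760 TPM in T1 and 2484 to 2622 TPM in T2, and 12 of 15 were called lower. Marker RNA of other cells moved as well. The 10 mast cell and basophil markers summed to 466.8 to 577 TPM in T1 and 4575 to 4907 TPM in T2, led by Tpsb2 at a mean of 1860 TPM in T2, and the 9 red cell markers to 71.8 to 99.6 TPM in T1 and 461 to 709.5 TPM in T2. No mast cell marker was at 0 in either group, and of the red cell markers Slc4a1 was at 0 in T1. Y-linked RNA was lower in T2, as given above. The part of these cells and of handling in the chaperone result was not tested.

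In WTiMOS MPP3 of 3 months 2 of 9 tested genes rose in T2 and 1 fell, beside 8.39% of all genes called higher and 5.96% called lower. Hsp90ab1 rose from 1014, 981 and 960.1 TPM in T1 to 1161, 1219.7 and 1286.5 TPM in T2 (log2 0.31, SE 0.06, adjusted p = 0.0025). Hspd1 was at 547, 517 and 577 TPM in T1 and at 677, 666.5 and 641 TPM in T2 (log2 0.27, SE 0.06, adjusted p = 0.011). Hspa8 fell by 0.19 on the log2 scale (SE 0.04, adjusted p = 0.011), from 4946 ± 135 to 4326 ± 224 TPM. For these 3 genes the T1 and T2 libraries did not overlap. The same held for 7 of the 10 genes in this table, called or not, and the share of all genes without overlap was not counted.
Some of these calls rested on single libraries. The call of Hspa8 was lost without T1 replicate 1 (adjusted p = 0.051) or T1 replicate 2 (0.052), and that of Hspd1 without T1 replicate 2 (0.068). When the 30 libraries were fitted together, weighted by table, neither Hspa8 (adjusted p = 0.13) nor Hspd1 (adjusted p = 0.060) passed. The median of all genes was 0.10 in this table, and after rescaling 0 of the 9 were called higher, beside 4.3% of all genes, and 2 lower, beside 7.95%. These 2 were Hspa8 (-0.31) and Hspa5 (-0.26), while Hsp90ab1 (0.19, adjusted p = 0.099) and Hspd1 (0.16, adjusted p = 0.25) no longer passed.
The remaining genes did not pass as deposited. Hspa1a was at 2.57, 3.99 and 1.63 TPM in T1 and at 0.54, 0 and 1.62 TPM in T2, a log2 difference of -1.18 (SE 0.41, adjusted p = 0.075) that passed without T2 replicate 3 (-1.54, adjusted p = 0.034). Hspa1b, at 0.19 ± 0.17 TPM in T2, was too low to be tested. Hspe1 had a log2 difference of -0.23 (SE 0.10, adjusted p = 0.16), which passed without T2 replicate 1 (-0.35, adjusted p = 0.012). Without the same library Hspa5 passed too, at -0.17 against -0.14 with it. Dnajb1 (-0.15), Hsph1 (-0.10) and Hsp90aa1 (0.04, and -0.08 after rescaling) had adjusted p values of 0.26 to 0.74.

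The other lists in this table stand beside 8.39% of all genes called higher and 5.96% called lower. Of 14 inducible chaperones 2 rose and 1 fell (median 0.06). Cryab, a small heat shock protein, rose by 1.51, Hsbp1, which binds Hsf1, rose by 0.40 and the collagen chaperone Serpinh1 fell by 1.74. Of 16 cochaperones 3 rose and 0 fell (median 0.09), which were St13 (0.37), Ppid (0.27) and Bag2 (0.47). Of 25 genes of the endoplasmic reticulum 0 rose and 2 fell (median -0.08), Xbp1 (-0.34) and P4hb (-0.23). Of 15 mitochondrial genes 2 rose and 0 fell (median 0.17), the prohibitins Phb (0.31) and Phb2 (0.22). Of 14 TRiC and prefoldin genes 5 rose and 0 fell (median 0.13), among them Cct7 (0.34), Cct4 (0.28) and Cct5 (0.25).
Immediate early genes stood at 12790 to 13550 TPM in T1 and 8755 to 9560 TPM in T2, the highest sums of the series, and 11 of 15 were called lower. The 10 neutrophil and monocyte markers summed to 1515 to 1894 TPM in T1 and 117.6 to 723 TPM in T2, with Retnlg at 0 in T1. Their part in the result was not tested.

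In WTiMOS MPP3 of 24 months 6 of 9 tested genes rose in T2 and 0 fell, beside 30% of all genes called higher and 12% called lower. The median log2 change of the members was 0.45, against 0.18 for all genes. Hsph1 was at 36.2, 44.9 and 38.2 TPM in T1 and at 82.9, 65.2 and 65.7 TPM in T2 (log2 0.82, SE 0.13, adjusted p = 0.00057). Hspe1 was at 614, 684 and 658 TPM in T1 and at 1199, 1137 and 1003 TPM in T2 (log2 0.77, SE 0.10, adjusted p = 1.0e-04). Hspd1, its partner, was at 205, 203 and 193 TPM in T1 and at 356, 299.8 and 289 TPM in T2 (log2 0.64, SE 0.10, adjusted p = 0.00054). Here the barrel and the lid of the mitochondrial chaperonin rose together, and no T2 library of these 3 genes overlapped T1. Without overlap were 7 of the 10 genes in this table, and the share of all genes was not counted.
Hsp90ab1 rose 1.67-fold, from 1199.7 ± 27.5 to 2005 ± 20.2 TPM (log2 0.74, SE 0.08, adjusted p = 3.3e-05), while Hsp90aa1 had a log2 difference of 0.22 (adjusted p = 0.11). Dnajb1 rose by log2 0.45 and Hspa5 by 0.42. Hspa8, at 2228 ± 112 and 2284 ± 145 TPM, had a log2 difference of 0.04 (SE 0.09), which was -0.15 after rescaling, and Hspa1b one of 0.01 (SE 0.21, -0.14 after rescaling). Hspa1a, at means under 1 TPM, was not tested.
After rescaling 4 genes remained higher (Hsph1 0.64, Hspe1 0.58, Hsp90ab1 0.55 and Hspd1 0.46), beside 18.9% of all genes higher and 18.5% lower, and Hspa5 (0.23, adjusted p = 0.059) and Dnajb1 (0.27, adjusted p = 0.090) no longer passed.

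The other chaperone lists of this table stand beside 30% of all genes called higher and 12% called lower. Creld2 rose by 1.76, from 63.6 ± 5.35 to 218 ± 19.7 TPM, Sdf2l1 by 1.08 and Herpud1 by 0.72, 3 genes of the unfolded protein response, while of the whole list of 25 genes 7 rose and 3 fell (median 0.15, under that of all genes). Of 16 cochaperones 7 rose and 1 fell (median 0.36), with Dnajc7 (0.75), St13 (0.53) and Bag1 (0.58) among them. Of 12 inducible chaperones 3 rose and 1 fell (median 0.19), Cryab by 1.70, Hspa2 by 1.09 and Dnaja1 by 0.35. Of 15 mitochondrial genes 6 rose and 1 fell (median 0.25), with Phb2 (0.71), Hscb (0.57) and Lonp1 (0.65), and of 14 TRiC and prefoldin genes 5 rose and 1 fell (median 0.13), with Pfdn2 (0.73), Cct6a (0.53) and Cct2 (0.53).
The 9 plasma and B cell markers summed to 128 to 192 TPM in T1 and 2469 to 3288 TPM in T2, of which Jchain held 2577 TPM at its mean, and none was at 0. The red cell markers summed to 11.1 to 14.7 TPM in T1, with Slc4a1 at 0, and 694 to 975 TPM in T2. The neutrophil and monocyte markers went the other way, from 4320 to 4763 TPM in T1 to 594 to 718 TPM in T2, and the mast cell and basophil markers from 2310 to 2547 TPM, with Mcpt4 and Tpsab1 at 0, to 888 to 1000 TPM, with Tpsab1 at 0, although 7 of 9 tested mast cell and basophil markers were called higher and 2 lower. Immediate early genes summed to 2251 to 2281 TPM in T1 and 2330 to 2457 TPM in T2, and 4 of 15 were called higher and 6 lower. The part of these cells in the chaperone result was not tested.

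In WTiMOS MPP4 of 3 months 9 of the 10 genes fell in T2 and Hspe1 rose. Of all genes tested here, 72.6% were called lower and 8.71% higher, and the median of all genes was -0.74, so a fall of the deposited TPM was the common case. Hsp90ab1 was at 2091, 2046 and 1983.5 TPM in T1 and at 538, 427 and 436 TPM in T2 (log2 -2.13, SE 0.08, adjusted p = 1.7e-10). Hspd1 was at 318, 309.7 and 319 TPM in T1 and at 90.9, 75.3 and 75.4 TPM in T2 (log2 -1.96, SE 0.08, adjusted p = 1.6e-10). Hspe1 was at 631, 596 and 525 TPM in T1 and at 1135, 1050.4 and 1091 TPM in T2 (log2 0.91, SE 0.07, adjusted p = 2.1e-08). Both directions were without overlap of libraries, and Hspd1 ended at 0.256 of its T1 level where Hspe1 reached 1.87 times its own. All 10 genes were without overlap in this table, and the share of all genes was not counted.
Dnajb1 fell by 1.71, Hspa8 by 1.57 (from 3617 ± 287 to 1217 ± 58.4 TPM), Hspa5 by 1.49, Hspa1b by 1.18, Hspa1a by 1.02, Hsp90aa1 by 0.92 and Hsph1 by 0.60. The last was less than the fall of the median gene.
After rescaling, 22.2% of all genes were lower and 28.5% higher, and 5 of the 10 stayed lower: Hsp90ab1 (-1.22), Hspd1 (-1.06), Dnajb1 (-0.81), Hspa8 (-0.66) and Hspa5 (-0.58). Hspe1 (1.82) and Hsph1 (0.30, adjusted p = 0.021) were higher on that scale, so the direction of Hsph1 depends on the scale. Hsp90aa1 (-0.01), Hspa1a (-0.45) and Hspa1b (-0.44) did not pass.

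Most genes of the other lists were called lower as well, beside 72.6% of all genes. Of 16 cochaperones 15 fell and 1 rose (median -1.18), among them Fkbp4 (-2.44), Dnajc7 (-2.57) and the Hsp90 activator Ahsa1 (-1.90). Of 25 genes of the endoplasmic reticulum 20 fell and 2 rose (median -1.21), with the disulfide isomerases Pdia6 (266.5 ± 30.7 to 65.7 ± 1.13 TPM) and Pdia3 (-1.94) and the Hspa5 cochaperone Dnajb11 (-2.01). Of 15 mitochondrial genes 14 fell and 1 rose (median -1.09), among them Phb2 (-1.30), Hspa9 (-1.16), the mitochondrial Hsp70, and Trap1 (-1.33), the mitochondrial Hsp90. Of 14 TRiC and prefoldin genes 10 fell and 3 rose (median -0.85), with Cct3 at -1.66, Cct5 at -1.35 and Cct8 at -1.17. Of 13 inducible chaperones 9 fell and 1 rose (median -0.68), and the gene that rose was Hsbp1 (0.60). The medians of 4 of the 5 lists lay below that of all genes.
All 15 immediate early genes fell, from sums of 4025 to 4466 TPM to 1474 to 1725 TPM. The red cell markers summed to 25.7 to 45.3 TPM in T1, with Slc4a1 at 0, and 288 to 365 TPM in T2, with Slc4a1 and Epor at 0, and the neutrophil and monocyte markers to 635 to 748 TPM in T1 and 341 to 383 TPM in T2. Their part in the result was not tested.

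In WTiMOS MPP4 of 24 months 5 of 9 tested genes rose and 2 fell, beside 58.2% of all genes called higher and 7% called lower. The median of all genes was 0.43 and that of the members 0.29, and 5 of the 9 lay below the median gene. Hsp90ab1 was at 1399, 1377 and 1412 TPM in T1 and at 2181, 2108 and 2064 TPM in T2 (log2 0.60, SE 0.06, adjusted p = 2.8e-05). Dnajb1 was at 74.6, 77.8 and 74.3 TPM in T1 and at 101.6, 127 and 118 TPM in T2 (log2 0.60, SE 0.10, adjusted p = 0.00050). Neither gene's groups overlapped, which held for 8 of the 10 genes in this table, and the share of all genes was not counted. Hspa5 rose by 0.50, Hspd1 by 0.45 and Hspa8 by 0.24.
Hsp90aa1 fell by 0.26 on the log2 scale (SE 0.07, adjusted p = 0.0090), from 1212, 1219 and 1278 TPM to 1128, 1010.3 and 967.5 TPM, while its sister Hsp90ab1 rose. Hspe1 was at 679, 705.5 and 716 TPM in T1 and at 687, 554 and 565 TPM in T2 (log2 -0.22, SE 0.09, adjusted p = 0.040). The groups of Hspe1 overlapped, and its call was lost without T1 replicate 2 or 3 or T2 replicate 2 or 3 (adjusted p of 0.092, 0.11, 0.15 and 0.13). Hspa1b had a log2 difference of -0.50 (adjusted p = 0.087), which passed without T2 replicate 2 (-0.76, adjusted p = 0.014), Hsph1 one of 0.29 (adjusted p = 0.069, and -0.13 after rescaling), and Hspa1a was not tested.
After rescaling 1 gene was higher, Hsp90ab1 (0.17, adjusted p = 0.041), beside 15.8% of all genes, and 4 were lower, beside 18.5%. The latter were Hsp90aa1 (-0.69), Hspa1b (-0.77), Hspe1 (-0.65) and Hspa8 (-0.19, adjusted p = 0.037), whose direction turned. Hspa5 (0.07), Hspd1 (0.02) and Dnajb1 (0.18) did not pass on that scale.

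The other chaperone lists of WTiMOS MPP4 of 24 months stand beside 58.2% of all genes called higher and 7% called lower. Of 16 cochaperones 11 rose and 0 fell (median 0.33), with Dnajc7 (1.09), Fkbp4 (0.53) and the ubiquitin ligase Stub1 (0.54). Of 25 genes of the endoplasmic reticulum 12 rose and 2 fell (median 0.32), and Ddit3, a stress factor linked to cell death, fell from 104 ± 5.37 to 53.0 ± 2.67 TPM while Creld2 (0.75) and Herpud1 (0.66) rose. Of 12 inducible chaperones 5 rose and 0 fell (median 0.34), with Dnajb4 (0.40), Chordc1 (0.28) and Dnaja1 (0.26). Of 15 mitochondrial genes 8 rose and 2 fell (median 0.27), with Dnaja3 (0.92), Afg3l2 (0.69) and Clpx (0.57), and of 14 TRiC and prefoldin genes 5 rose and 1 fell (median 0.10), with Cct4 (0.40), Pfdn2 (0.36) and Cct5 (0.30). All 5 medians were under that of all genes.
Immediate early genes summed to 2499 to 2986 TPM in T1 and 2858 to 3257 TPM in T2, and 5 of 15 were called higher and 3 lower. The mast cell and basophil markers summed to 230.7 to 271 TPM in T1 and 72.1 to 90.8 TPM in T2, with Mcpt4, Cma1, Tpsb2, Tpsab1, Prss34, Ms4a2 and Fcer1a at 0 in both. The neutrophil and monocyte markers summed to 315.5 to 340.2 TPM in T1 and 124 to 194.7 TPM in T2. Their part in the result was not tested.

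**Figure D2:**
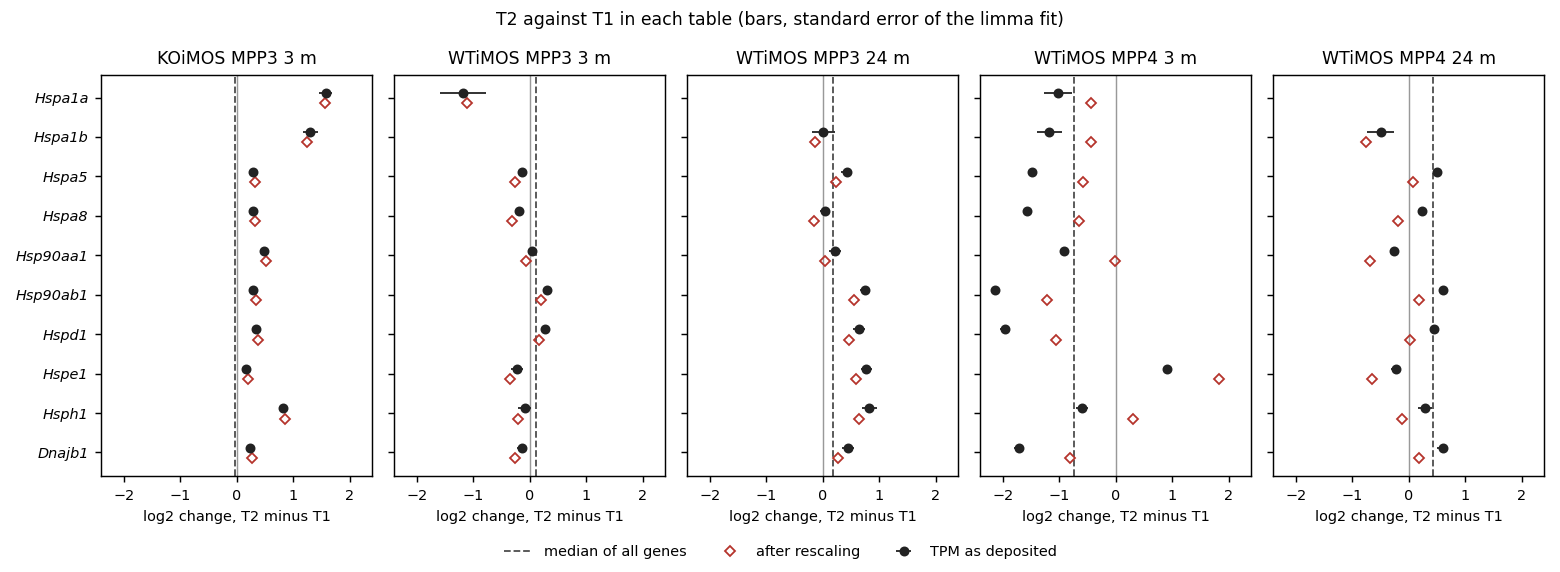
Log2 change of T2 minus T1 on the horizontal axis for each of the 10 genes, in 1 panel for each table; filled points are the fit on deposited TPM with its standard error, open diamonds the values after median-ratio rescaling, and the dashed line the median of all genes tested. Genes with no point were not tested, and the 2 scales lie widest apart in WTiMOS MPP4 of 3 months, where that median was -0.74.

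Whether the T2 and T1 step itself differed between tables was tested as an interaction. Between KOiMOS and WTiMOS MPP3 of 3 months 8 of 10 genes had a larger step in KOiMOS and 0 a smaller, beside 20.9% of all genes called in either direction. The difference was log2 2.75 for Hspa1a (SE 0.43, adjusted p = 0.00049), 1.83 for Hspa1b, 0.91 for Hsph1 and 0.47 for Hspa8. Hsp90ab1 (-0.02, SE 0.08) and Hspd1 (0.06, SE 0.06) did not pass, and both rose in T2 of both tables as deposited. All 8 were called on the rescaled values too, beside 2300 of 12219 genes. When genes under 1 TPM were also tested, the call of Hspe1 (0.40) was lost (adjusted p = 0.065).
Between WTiMOS MPP3 of 24 and of 3 months 5 of 10 had a larger step at 24 months, beside 15.2% of all genes. They were Hspe1 (1.0, SE 0.14), Hsph1 (0.92, SE 0.18), Dnajb1 (0.60), Hspa5 (0.56) and Hsp90ab1 (0.43), and Hspd1 missed the threshold (0.37, SE 0.12, adjusted p = 0.054).
Between WTiMOS MPP4 of 24 and of 3 months 7 were larger and 1 smaller, beside 83.8% of all genes, and between WTiMOS MPP4 and MPP3 of 3 months 1 was larger and 7 smaller, beside 64.9%. In these 2 comparisons, where most genes were called, the sign of Hsp90aa1 and of Hsph1 turned on rescaling, while Hsp90ab1 (1.39 and -1.41 rescaled) and Hspd1 (1.08 and -1.21 rescaled) kept theirs. As deposited Hspe1 went against the 7 other called genes in both, at -1.13 and 1.14. Rescaled it was at -2.47 and 2.17, where Hsp90aa1 (-0.67 and 0.066) and Hsph1 (-0.43 and 0.51) had its sign, and with a trend on transcript length and GC content taken out of every library it was at -0.13 (adjusted p = 0.38) and 0.36. Between MPP4 and MPP3 of 24 months 2 of 10 had a smaller step in MPP4, beside 20.6% of all genes: Hspe1 (-0.99, SE 0.13) and Hsp90aa1 (-0.47, SE 0.13, and -0.71 rescaled). After rescaling 5 had a smaller step there, beside 1139 of 12023 genes.

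Levels were also compared between tables, T1 with T1 and T2 with T2, where the condition and the table it was deposited in cannot be told apart. The T1 libraries of WTiMOS MPP3 of 3 months, at 64.2 to 78.9 TPM of Y-linked RNA, were set against T1 libraries of MPP3 of 24 months and of MPP4 of 3 months with none. Values are given as deposited, then after rescaling and with the length and GC trend removed where these moved them by over 1.5 times or ended a call. Between KOiMOS and WTiMOS MPP3 of 3 months all 10 genes were called in T1, beside 66.3% of all genes, and all 10 in T2, beside 54.8%. Some of the T1 calls depended on the setting. Hspd1 (0.15) did not pass after rescaling (-0.02, adjusted p = 0.69) or with table weights (adjusted p = 0.089). With the trend removed Hspd1 was at 0.40 (adjusted p = 7.9e-05). Hspa8 (-0.19) did not pass with the trend removed (0.07, adjusted p = 0.060) and was at -0.36 after rescaling (adjusted p = 8.8e-05). Hsph1 (-0.17) did not pass with table weights (adjusted p = 0.22) or with a replicate block (adjusted p = 0.066). After rescaling Hsph1 was at -0.34 (adjusted p = 0.0015). In T2 the Hsp90 genes and the stress-raised Hsp70 pair were higher in KOiMOS: Hsp90aa1 by log2 1.30 (949.4 ± 26.0 against 385 ± 17.7 TPM), Hsp90ab1 by 1.37, Hspa1a by 3.92 and Hspa1b by 2.61. Hspa5 (-0.34) and Dnajb1 (-0.44) were lower, as they were in T1 (-0.77 and -0.82).
Between WTiMOS MPP3 of 24 and of 3 months 10 genes were called in T1, beside 80.6% of all genes, and 8 of 9 in T2, beside 74.7%. Dnajb1 was lower at 24 months in T1, at 56.6 ± 3.65 against 265 ± 6.46 TPM (log2 -2.21, and -1.34 with the trend removed), and so were Hspa5 (-1.50, and -0.90 rescaled) and Hspd1 (-1.44, and -0.84 rescaled). Hspe1 was higher at 24 months, by log2 1.79 in T1 and 2.79 in T2 (1113 ± 100.3 against 160.3 ± 24.0 TPM), and Hsp90aa1 by 1.57 and 1.74. On the rescaled values Hspe1 was higher by 2.39 and 3.32, and with the trend removed by 0.70 and 1.64.
Between WTiMOS MPP4 of 24 and of 3 months 9 of 10 genes were called in T1, beside 62.6% of all genes, and 8 of 9 in T2, beside 81%. In T1 8 were lower at 24 months (6 after rescaling), beside 6281 of 11334 genes (2030 of 11385 after rescaling). The largest differences were in Hspa1b (-1.67) and then Hspa1a (-1.23). In T2, where the median of all genes was 0.79, Hsp90ab1 was higher by 2.19 and Hspd1 by 2.05, with Hspe1 lower (-0.86). Rescaled, these 3 were at 1.22, 1.08 and -1.83. With the trend removed Hspe1 no longer passed (-0.15, adjusted p = 0.19).
Between MPP4 and MPP3 of 3 months 9 of 10 were called in T1, beside 77.3% of all genes, and 9 of 9 in T2, beside 82.7%. Hsp90aa1 and Hspe1 were higher in MPP4 T1, each by log2 1.63, and Hspa1b by 2.52. Its near copy Hspa1a was not called there (0.40, adjusted p = 0.18, and 1.48 with the trend removed). The ratio of Hspa1a to Hspa1b had medians of 0.46 in MPP4 T1 and 3.75 in MPP3 T1. How far read assignment enters these values was not tested. The value of Hspe1 was 0.86 with the trend removed. In T2, where the median of all genes was -1.04, Hspd1 was at log2 -3.03 and Hspe1 at 2.77. Rescaled they were at -1.85 and 3.96, and Hspe1 was at 1.22 with the trend removed. At 24 months 4 of 10 genes were called in T1, beside 24.7% of all genes, and 6 of 9 in T2, beside 38.8%. In T1 these were Hspa8 (0.19), Hsp90ab1 (0.22), Hspd1 (0.28) and Dnajb1 (0.41), all higher in MPP4. After rescaling 1 of them (Dnajb1, 0.35) was called, beside 2599 of 11366 genes. The others were at 0.12 (Hspa8), 0.15 (Hsp90ab1) and 0.21 (Hspd1) on that scale. With the trend removed Hspa8 (0.09) and Hsp90ab1 (0.14) no longer passed. Without T1 replicate 3 of MPP3 or T1 replicate 3 of MPP4 the count was also 1, beside 1725 and 1917 of all genes.

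The order of the groups differed between genes. Hsp90aa1 was highest in T2 of WTiMOS MPP3 of 24 months (1298 TPM) and lowest in T1 of WTiMOS MPP3 of 3 months (374 TPM). Its first 5 groups in the order each overlapped the next. Hspa5 was highest in T1 of WTiMOS MPP3 of 3 months (1116 TPM) and lowest in T2 of WTiMOS MPP4 of 3 months (209 TPM), and 8 of its 9 neighbouring pairs did not overlap. Hspe1 had 2 groups above the rest that overlapped each other, T2 of WTiMOS MPP3 of 24 months (1113 TPM) and T2 of WTiMOS MPP4 of 3 months (1092 TPM). Hspa1a stood apart in KOiMOS T2 (23.3 TPM) and KOiMOS T1 (7.11 TPM), and from the third group on each overlapped the next. Hsph1 stood apart in KOiMOS T2 (134.9 TPM), and Dnajb1 was highest in T1 (265 TPM) and then T2 (239.6 TPM) of WTiMOS MPP3 of 3 months.

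The TPM ratios of genes that work together differed between tables. The level of Hspd1 per level of Hspe1 (both TPM, scaled by length) had medians of 2.03 in T1 and 2.43 in T2 of KOiMOS MPP3 and of 2.83 and 4.31 in WTiMOS MPP3 of 3 months. In the 3 other tables it was below 1 in all libraries, at medians of 0.30 and 0.29 in WTiMOS MPP3 of 24 months, 0.52 and 0.072 in WTiMOS MPP4 of 3 months and 0.35 and 0.55 in WTiMOS MPP4 of 24 months. Hspe1 was thus above Hspd1 in 18 of 30 libraries, all from those 3 tables. The 2 transcripts differ in length (774 bases for Hspe1, 2423 for Hspd1), and levels between tables moved with length, as given below. For WTiMOS MPP3 T1 of 24 against 3 months, removing the length and GC trend took Hspe1 from 1.79 to 0.70. Hspd1 went from -1.44 to -1.23. The part of length in the ratio was not tested. Hsp90ab1 was above Hsp90aa1 in 27 of 30 libraries, at medians of 1.07 to 3.74 in 9 groups, and below it in the 3 T2 libraries of WTiMOS MPP4 of 3 months (median 0.73). The ratio of Hspa1a to Hspa1b was 3.58 to 3.75 at the medians of both MPP3 tables of 3 months and 0.23 to 0.63 in the other tables. Since the copies share most of their sequence, that ratio also depends on how reads were assigned.

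**Figure D3:**
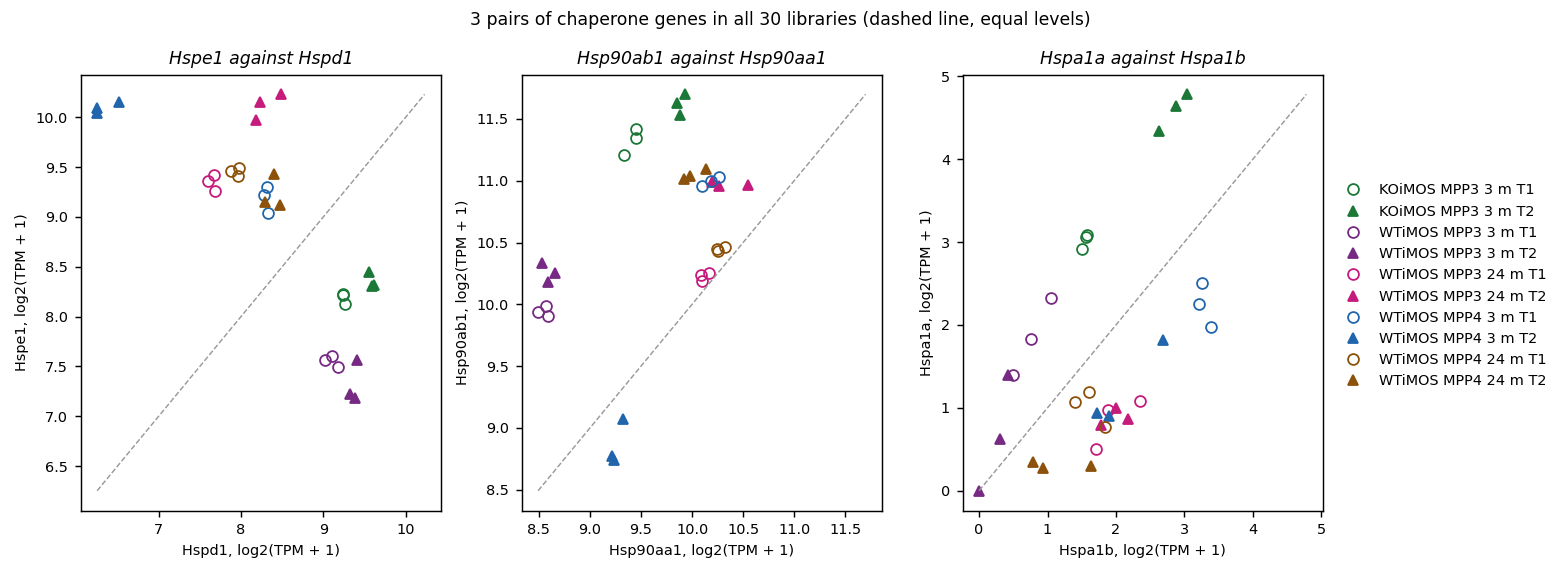
Levels of 3 pairs of genes as log2(TPM + 1) on both axes, with 1 point for each of the 30 libraries, colour for the table, open circles for T1 and triangles for T2; the dashed line marks equal levels and the axes do not start at 0 except near it in the right panel. Hspe1 lies above Hspd1 in 18 libraries, and the 3 T2 libraries of WTiMOS MPP4 of 3 months lie below the line for Hsp90ab1 against Hsp90aa1.

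Transcript length moved with several of these results. Hspe1 is the shortest of the 10, at 774 bases in GENCODE vM21, and the others have 2394 (Hspa8) to 3802 bases (Hsph1). In WTiMOS MPP4 of 3 months the median T2 against T1 change was log2 0.29 over 1027 genes shorter than 1000 bases and -0.94 over 2469 genes of 2 to 3 kilobases. In WTiMOS MPP4 of 24 months the same medians were -0.05 and 0.46, and in KOiMOS MPP3 -0.09 and -0.02. The rise of Hspe1 in WTiMOS MPP4 of 3 months was 0.91 as deposited and 0.25 (adjusted p = 0.017) once a trend on length and GC content was taken out of every library, and its fall at 24 months of -0.22 became 0.13 (adjusted p = 0.25). Its rise in WTiMOS MPP3 of 24 months was 0.77 before and 0.84 after that step. Between tables the medians of short and mid-length genes lay further apart, at 0.77 and -1.27 for WTiMOS MPP3 T1 of 24 against 3 months and 1.0 and -1.84 for MPP4 against MPP3 T2 of 3 months, where Hspe1 was at 1.79 and 2.77.

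**Figure D4:**
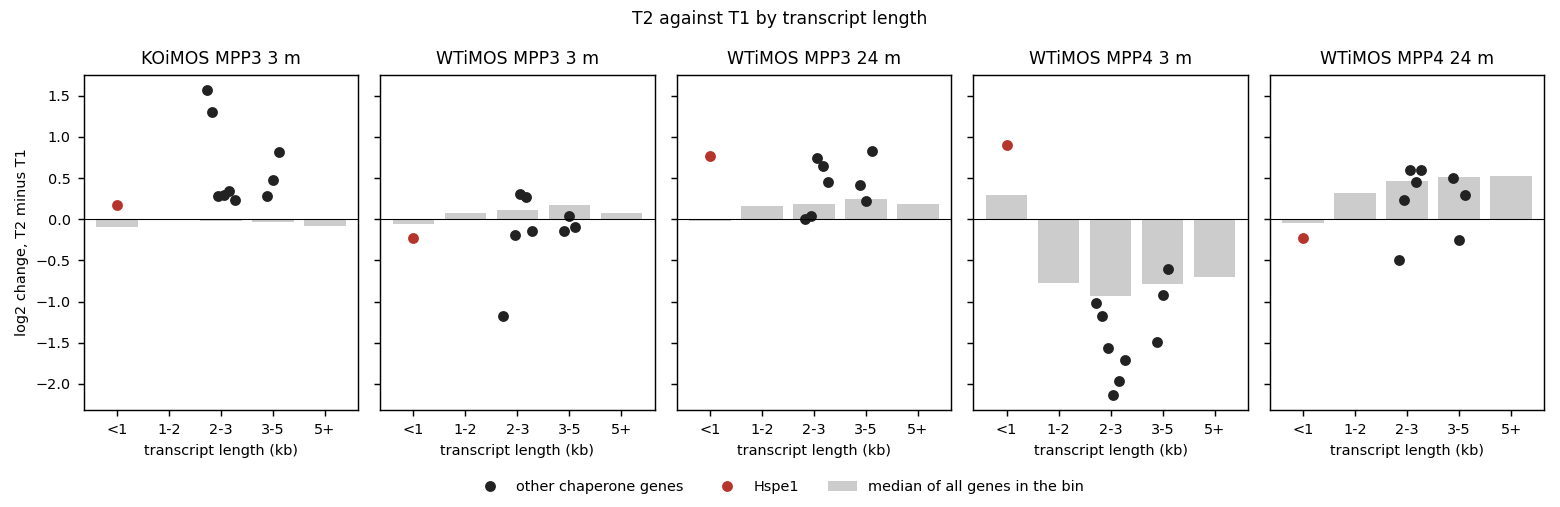
Log2 change of T2 minus T1 on the vertical axis by transcript length in kilobases on the horizontal axis, 1 panel for each table; grey bars are medians of all genes in a bin, the red point is Hspe1 and black points are the other tested members. In WTiMOS MPP4 of 3 months the bar of genes under 1000 bases is at 0.29 and the other bars lie between -0.94 and -0.70.

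How far the genes moved together was described over the 30 libraries, after the mean of each table was taken from its libraries. Libraries share a table and may share a preparation, so the values have no test. Hspa5, Hspa8, Hsp90ab1, Hspd1 and Dnajb1 had Pearson r of 0.90 to 0.99 in all 10 pairs, highest for Hsp90ab1 with Hspd1 (0.99) and then Hspa5 with Dnajb1 (0.97). Hspa1a and Hspa1b were at 0.87. Hspe1 had values of -0.66 (with Hspa8) to 0.14 (with Hsph1) against the other 9, and -0.48 with Hspd1. The deposited TPM of most genes fell in T2 of WTiMOS MPP4 of 3 months, and the part of that in these values was not tested.
Among 9237 genes with a mean of at least 5 TPM, the 3 most like each of 9 members by the same measure were as follows. For Hspa5 they were Akr1a1 (0.99), Vdac1 (0.98) and Dnajb11 (0.98), for Hspa8 Atp5a1, Ddx39 and Atp5b (0.98 each), and for Hspd1 Hsp90ab1, Arl6ip1 and Sumo3 (0.98 to 0.99). For Hsp90ab1 they were Hspd1 (0.99), Mcm3 (0.98) and Psmd2 (0.98), and for Dnajb1 Rbm42, Idh2 and Rnf5 (0.97 each). For Hspa1b they were Ccna2 (0.86), Pbk (0.85) and Kif2c (0.84). For Hspa1a they were Arhgap19, Incenp and Esco2 (0.79 to 0.80) and for Hsph1 Uhrf1, Marc2 and Cdc7 (0.87 to 0.89). For Hspe1 they were 1810037I17Rik (0.94), Rps4x (0.93) and Tpt1 (0.93).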

How the data were processed

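The authors deposited 5 tables of TPM values for 24421 genes, each with 3 T1 and 3 T2 libraries; every column sums to 1000000, and 10519 to 12008 genes reached 1 TPM in a library. Total RNA of sorted cells was made into cDNA with a low-input kit, per the labels' protocols. HISAT2, StringTie, featureCounts, DESeq2 and mm10 are named in the submitters' processing notes; no source used here says which of them made the TPM. Values were tested on log2(TPM + 1) with limma 3.58.1 (R 4.3.3; trend and robust variance), fitting only the groups compared. Genes at 1 TPM or more in at least 3 libraries of a comparison entered, and p-values were Benjamini-Hochberg adjusted over all of them, with a threshold of 0.05. Changes refer to log2(TPM + 1), so those of low genes are understated. Rescaling divided each library by the median of its ratios to each gene's geometric mean over the 30 libraries. That median was taken over the 8913 genes above 1 TPM in every library. Other settings were a pseudocount of 0.1, no filter, all 30 libraries with table weights, a replicate block and each library left out. Removing a trend on length and GC content (splines of 5 degrees of freedom) and summing Hspa1a and Hspa1b were added after seeing the data. The scripts were tested on simulated data. All 10 genes are named, and up to 3 called genes of smallest p from each chaperone list. Genes and lists were chosen with earlier results of these data known. Positions and lengths come from GENCODE vM21, which matched 23376 genes (95.7%). The genes most like Hsp90aa1 in level are not reported here.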

Additional observations from a re-analysis of the deposited data

Results flagged for a closer look

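The T2 against T1 change differed between tables, by a test of that difference, for the following genes (log2, limma on deposited TPM). For KOiMOS minus WTiMOS MPP3 of 3 months the values were 2.75 for Hspa1a, 1.83 for Hspa1b, 0.43 for Hspa5, 0.47 for Hspa8, 0.44 for Hsp90aa1, 0.40 for Hspe1, 0.91 for Hsph1 and 0.38 for Dnajb1. For 24 minus 3 months in WTiMOS MPP3 they were 0.56 for Hspa5, 0.43 for Hsp90ab1, 1.0 for Hspe1, 0.92 for Hsph1 and 0.60 for Dnajb1. Over all genes 20.9% and 15.2% were called in these comparisons in turn.

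For 24 minus 3 months in WTiMOS MPP4 the values were 1.99 for Hspa5, 1.80 for Hspa8, 0.66 for Hsp90aa1, 2.73 for Hsp90ab1, 2.41 for Hspd1, -1.13 for Hspe1, 0.89 for Hsph1 and 2.31 for Dnajb1. For MPP4 minus MPP3 of 3 months they were -1.35 for Hspa5, -1.37 for Hspa8, -0.96 for Hsp90aa1, -2.44 for Hsp90ab1, -2.24 for Hspd1, 1.14 for Hspe1, -0.50 for Hsph1 and -1.57 for Dnajb1. In these 2 comparisons 83.8% and 64.9% of all genes were called, and the median step of all genes was 1.16 and -0.81. After rescaling Hsp90aa1 (-0.67 and 0.066) and Hsph1 (-0.43 and 0.51) changed sign in both. For MPP4 minus MPP3 of 24 months the values were -0.47 for Hsp90aa1 and -0.99 for Hspe1, beside 20.6% of all genes called. These comparisons share libraries of T1 and T2 with each other, and table and condition cannot be told apart in them.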

How the results depend on the processing

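Depth is unknown and each group holds 3 libraries, which limits the precision of low genes such as Hspa1a and Hspa1b. After median-ratio rescaling the number of the 10 genes called went from 2 to 5 for the MPP4 against MPP3 step of 24 months. Over all genes 2449 of 11897 were called there as deposited and 2012 of 12023 after rescaling. For MPP4 against MPP3 T1 of 24 months the number went from 4 to 1, beside 2734 of 11060 and 2599 of 11366 over all genes. Leaving out 1 library gave 1 to 5 called genes for T2 against T1 in WTiMOS MPP3 of 3 months. These were 5 without T2 replicate 1, 1 without T1 replicate 2 and 3 with all, beside 2197, 993 and 1682 of all genes. For MPP4 against MPP3 T1 of 24 months leaving out 1 library gave 1 to 3, beside 1725 to 2572 of all genes.

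Rescaling turned the direction of these T2 against T1 changes: Hsp90aa1 in WTiMOS MPP3 of 3 months (-0.077), Hspa1b (-0.138) and Hspa8 (-0.152) in WTiMOS MPP3 of 24 months, Hsph1 in WTiMOS MPP4 of 3 months (0.298), and Hspa8 (-0.191) and Hsph1 (-0.128) in WTiMOS MPP4 of 24 months. It also turned the step of Hsp90aa1 (-0.675) and Hsph1 (-0.426) for 24 against 3 months in MPP4 and of Hsp90aa1 (0.066) and Hsph1 (0.51) for MPP4 against MPP3 of 3 months. Between tables it turned Hspd1 for KOiMOS against WTiMOS T1 (-0.024), Hspd1 for 24 against 3 months in MPP4 T1 (0.003), Hsp90aa1 for the same ages in T2 (-0.211) and Hsph1 for MPP4 against MPP3 T2 of 3 months (0.329). Removing the length and GC trend turned Hsp90aa1 in WTiMOS MPP3 of 3 months (-0.024), Hspa1b (-0.136) and Hspa8 (-0.03) in WTiMOS MPP3 of 24 months and Hspe1 in WTiMOS MPP4 of 24 months (0.125). Between tables it turned Hspa8 for KOiMOS against WTiMOS T1 (0.066), Hspa1a for 24 against 3 months in MPP3 T1 (0.357), Hspe1 for 24 against 3 months in MPP4 T1 (-0.02) and Hspa8 for MPP4 against MPP3 T1 of 3 months (0.109). The cause was not tested. Leaving out 1 library gave -0.127 to 0.191 for Hspa1b and -0.01 to 0.082 for Hspa8 in WTiMOS MPP3 of 24 months.

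A pseudocount of 0.1 changed no direction or call in 47 T2 against T1 results. Summing Hspa1a and Hspa1b changed none in 40, but these are results of the other genes, whose levels the sum leaves as they were. The result of the summed pair itself is not given, so the 40 say nothing about the split between Hspa1a and Hspa1b. Fitting all 30 libraries with table weights ended the calls of Hspa8 and Hspd1 in WTiMOS MPP3 of 3 months (adjusted p of 0.132 and 0.0603) and added 4, Hspa1a in that table, Hsp90aa1 in WTiMOS MPP3 of 24 months, and Hspa1b and Hsph1 in WTiMOS MPP4 of 24 months (adjusted p of 0.018, 0.0261, 0.048 and 0.0185). Removing the trend added 3, Hspa5, Hsp90aa1 and Hspa1b in the same 3 tables in turn (adjusted p of 0.0385, 0.00885 and 0.038). Without the filter the call of Hspe1 in WTiMOS MPP4 of 24 months was lost (adjusted p = 0.0782). So was that of Hspe1 in the step of KOiMOS against WTiMOS MPP3 (0.399, adjusted p = 0.0654). For MPP4 against MPP3 of 24 months the calls of Hspa8 in T1 (adjusted p = 0.0589) and Hsp90aa1 in T2 (adjusted p = 0.077) were lost. Same-numbered T1 and T2 libraries had correlations of -0.165 to 0.099, so the numbers were not taken to pair them. With a replicate block 46 of those 47 results kept their call. The called genes in WTiMOS MPP4 of 24 months went from 7 to 6 with the loss of Hspe1, beside 7407 and 6807 of 11366 genes.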
